A study of Mus musculus with 11 samples.

Results

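Outer hair cells are the amplifying sensory cells of the cochlea, and 6 genes whose products mark them or serve their specialised functions were followed here: *Slc26a5*, *Ikzf2*, *Chrna9*, *Chrna10*, *Strip2* and *Lmod3*. They were chosen by name as outer hair cell identity genes, from the 18667 genes measured in whole mouse cochleae, and were compared between *Atf6*+/+ and *Atf6*-/- mice before and after division by the pan hair cell genes *Myo6* and *Myo7a* of the same library. RNA sequencing was done on 11 cochleae, 5 from *Atf6*+/+ mice and 6 from *Atf6*-/- mice, 1 library each. By the study's account the *Atf6*+/+ mice were littermate controls, and all mice were 2 months old on the C57BL/6J background. That background carries a *Cdh23* allele linked to age-related hearing loss in both genotypes. The mutant *Atf6* allele is interrupted by an early stop codon and is null for the protein. The labels give the tissue as cochlea and state no batch, litter, side or sex.

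Outer hair cells change length with their membrane voltage, which amplifies the vibration that inner hair cells then report to the auditory nerve. Prestin, encoded by *Slc26a5*, is the motor protein of that movement, and the transcription factor helios, encoded by *Ikzf2*, drives the maturation of the cell's own gene programme. A cholinergic feedback from the brainstem reaches outer hair cells through a nicotinic receptor built of the α9 and α10 subunits. Hair cells are a small share of the cells in a whole cochlea.

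The targeted gene was measured first, in fragments per kilobase of exon scaled to the mapped fragments of the library (FPKM), the unit of the deposited values. *Atf6* was at 10.4, 9.99, 10.6, 8.39 and 8.25 FPKM in *Atf6*+/+ replicates 1 to 5, and its lowest, median and highest values in *Atf6*-/- cochleae were 3.83, 4.22 and 4.59 FPKM. Every *Atf6*-/- library lay below every *Atf6*+/+ library, so the labels and the targeted transcript went the same way. The log2 fold change, here and below taken as *Atf6*-/- minus *Atf6*+/+ on log2(FPKM + 0.1), was −1.13 (SE 0.0837, adjusted p = 5.17e-05 by limma, lower in 6 of 6 mutant cochleae). The added 0.1 understates the change of genes with low values.

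Among the 11 cochleae, *Atf6*+/+ replicates 3 and 4 stood apart on genes other than the 6 members. They had the lowest levels of *Myo6* and *Myo7a*, which encode unconventional myosins of all hair cells. *Myo6* was at 30.0, 28.0, 19.2, 15.7 and 24.0 FPKM in *Atf6*+/+ replicates 1 to 5, and the lowest, median and highest *Atf6*-/- values were 22.6, 28.1 and 30.9 FPKM. *Myo7a* was at 9.14, 7.52, 5.41, 4.86 and 5.80 FPKM, and its lowest, median and highest *Atf6*-/- values were 5.92, 7.09 and 7.95 FPKM. For both genes the wild-type group was the wider, and the mutant values fell within or close to its range. The log2 fold change was 0.26 for *Myo6* (SE 0.15, exact p = 0.169) and 0.13 for *Myo7a* (SE 0.147, exact p = 0.442), from a two-sided exact permutation test over the genotype labels. In limma, 0 of these 2 genes reached an adjusted p under 0.05 and 0 an unadjusted p of at most 0.05, with *Myo6* at an unadjusted p of 0.0266 once *Atf6*+/+ replicate 1 was left out and 0.0498 without replicate 2. Leaving out 1 cochlea at a time gave 0.13 (without *Atf6*+/+ replicate 4) to 0.36 for *Myo6* and 0.03 (without the same library) to 0.26 for *Myo7a*, the highest values both without *Atf6*+/+ replicate 1.

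The same replicates 3 and 4 had the highest sums of B cell and neutrophil genes and the highest *Prph*, while erythroid genes were highest in *Atf6*+/+ replicate 5. Summed B cell genes (6 listed, *Cd79a* the most abundant, none at 0 in any library) reached 10.1, 9.06, 29.9, 33.5 and 15.6 FPKM in *Atf6*+/+ replicates 1 to 5, with lowest, median and highest *Atf6*-/- sums of 7.19, 9.85 and 13.3 FPKM. Summed neutrophil genes (7 listed, *S100a9* the most abundant, none at 0) were at 481, 543, 3050, 1200 and 248 FPKM, with *Atf6*-/- sums from 89.4 to 1190 FPKM and a median of 249. By the mean log2 level of these genes, *Atf6*-/- replicate 4 (7.08) stood above *Atf6*+/+ replicate 4 (6.48) and below *Atf6*+/+ replicate 3 (8.06). Summed erythroid genes (6 listed, *Hba-a1* the most abundant, none at 0) were at 10400, 3170, 9680, 9060 and 30300 FPKM, against *Atf6*-/- sums from 1860 to 6090 FPKM with a median of 3210. Log2 fold changes were negative for 6 of 6 B cell, 7 of 7 neutrophil and 6 of 6 erythroid genes, also as TPM and after median-of-ratios scaling, with medians of −0.83, −1.49 and −1.47. In limma 0 of these genes passed the adjusted threshold, and 3, 3 and 5 were lower at the unadjusted one. *Prph*, an intermediate filament gene of peripheral neurons, was at 13.3 and 41.5 FPKM in *Atf6*+/+ replicates 3 and 4 and between 1.49 and 2.40 FPKM in the other 9 libraries. The part of these cells in the differences below was not tested. A fit with a bone marrow score as covariate, the mean of the B cell, neutrophil and erythroid log2 levels, is given below where it turned the sign or moved the log2 fold change of a member by over 1.5 times. Since all these genes were lower on average in mutants, the score goes with genotype, and this fit cannot tell the 2 apart. With it *Myo6* was at 0.00 and *Myo7a* at −0.02.

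Prestin RNA showed the widest spread and the largest fold change of the 6 genes. *Slc26a5* (NCBI gene 80979) was at 1.17, 1.03, 0.50, 0.24 and 0.56 FPKM in *Atf6*+/+ replicates 1 to 5, and the lowest, median and highest *Atf6*-/- values were 0.51, 1.63 and 4.11 FPKM. The highest cochleae were *Atf6*-/- replicates 5, 1 and 6, which exceeded every wild-type library, while the other 3 mutant cochleae lay inside the wild-type range. The means were 0.70 ± 0.388 FPKM (SD, n = 5) and 1.93 ± 1.36 FPKM (SD, n = 6). The log2 fold change was 1.2 (SE 0.492, 95% CI 0.13 to 2.27), with an unadjusted limma p of 0.0311, an adjusted limma p of 0.475 and an exact permutation p of 0.0931. With whole cochleae, fewer or more outer hair cells and less or more RNA per cell cannot be told apart. By the study's whole mounts, mutants of this age had lost outer hair cells in the basal region, while apical ones appeared preserved. Every p here measures the spread between these cochleae.

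The unadjusted p of *Slc26a5* depended on which libraries were used. Leaving out 1 cochlea at a time gave log2 fold changes from 0.93 to 1.48, and the unadjusted limma p passed 0.05 without *Atf6*+/+ replicate 3 (0.06), 4 (0.0895) or 5 (0.0558), or without *Atf6*-/- replicate 1 (0.0663), 5 (0.0657) or 6 (0.0621). With a bone marrow score as covariate, the log2 fold change of *Slc26a5* was 0.54, at an unadjusted limma p of 0.383 and an adjusted limma p of 0.972. Over all alternatives in FPKM its adjusted limma p ran from 0.376 to 0.972. With 1 in place of 0.1 added to each FPKM value, the log2 fold change was 0.69.

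*Lmod3* (NCBI gene 320502) encodes leiomodin 3, which starts actin filaments and is best known from skeletal muscle. It was at 0.47, 0.38, 0.10, 0.22 and 0.40 FPKM in *Atf6*+/+ replicates 1 to 5, with lowest, median and highest *Atf6*-/- values of 0.22, 0.55 and 1.0 FPKM. As for prestin, *Atf6*-/- replicates 5, 1 and 6 were the highest of all 11 libraries and the other 3 mutant cochleae overlapped the wild types. It had a log2 fold change of 0.66 (SE 0.366, 95% CI −0.14 to 1.45), with an adjusted limma p of 0.559 and an exact permutation p of 0.152. Without *Atf6*-/- replicate 2, the lowest mutant, it was 0.85 at an unadjusted limma p of 0.0333, and without *Atf6*+/+ replicate 3 it was 0.42. With the bone marrow score it was 0.08 at an unadjusted limma p of 0.855, and with 1 added to each FPKM value in place of 0.1 it was 0.24.

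The receptor subunits followed another order of the cochleae. *Chrna9* (NCBI gene 231252), the α9 subunit of the acetylcholine receptor, was at 4.18, 2.45, 0.77, 0.92 and 1.46 FPKM in *Atf6*+/+ replicates 1 to 5, and the lowest, median and highest *Atf6*-/- values were 1.6, 2.18 and 2.94 FPKM. Wild-type replicate 1 was the highest library and wild-type replicates 3 and 4 the lowest, so all 6 mutant cochleae lay inside the wild-type range. *Chrna10* (NCBI gene 504186), the partner subunit, was at 11.2, 6.54, 3.25, 3.37 and 3.96 FPKM in wild types, and at 3.76, 6.28 and 9.02 FPKM as the lowest, median and highest mutant value. It had the same highest and lowest libraries, with *Atf6*-/- replicates 3 and 4 next below wild-type replicate 1. Between genotypes the log2 fold change was 0.38 for *Chrna9* (SE 0.36, exact permutation p = 0.374) and 0.24 for *Chrna10* (SE 0.32, exact permutation p = 0.524), smaller than the spread between wild-type cochleae (SD of log2 values 0.95 and 0.749). Without *Atf6*+/+ replicate 1, *Chrna9* had a log2 fold change of 0.70 at an unadjusted limma p of 0.03, and it was 0.13 without replicate 3 and 0.19 without replicate 4. *Chrna10* ran from 0.08 without *Atf6*+/+ replicate 3 to 0.52 without replicate 1. With the bone marrow score the sign turned for both, to −0.18 for *Chrna9* and −0.16 for *Chrna10*.

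*Chrna10* values are uncertain for another reason. Of its 2628 exon bases in the GENCODE M21 annotation of GRCm38, 1025 (39.0%) are also exon of *Art1* on the opposite strand, and no source states whether strand was used in counting. *Art1*, a muscle ADP-ribosyltransferase gene, was at 14.1 ± 3.07 FPKM (SD, n = 5) and 11.9 ± 3.04 FPKM (SD, n = 6), which gave −0.27 on the log2 scale and an adjusted limma p of 0.64. *Ikzf2* shared 144 of 11613 exon bases (1.24%) with *Gm29114*, also on the opposite strand, and the other 4 genes shared none. That annotation belongs to an earlier build than the GRCm39 alignment behind the values.

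*Ikzf2* and *Strip2* varied least among the cochleae. *Ikzf2* (NCBI gene 22779) was at 0.69, 0.67, 0.60, 0.48 and 0.62 FPKM in *Atf6*+/+ replicates 1 to 5, with lowest, median and highest *Atf6*-/- values of 0.50, 0.68 and 0.78 FPKM. The genotypes overlapped over most of this range, with the lowest library a wild type, replicate 4, and the highest a mutant, replicate 1. Its log2 fold change was 0.11 (SE 0.145, 95% CI −0.21 to 0.42, exact permutation p = 0.374), and −0.03 with the bone marrow score. *Strip2* (NCBI gene 320609), a subunit of the STRIPAK phosphatase and kinase complexes, was at 4.84, 4.23, 4.68, 3.97 and 3.67 FPKM in wild types, with lowest, median and highest mutant values of 3.79, 4.53 and 5.67 FPKM. Only *Atf6*-/- replicate 5 exceeded the wild types, and the log2 fold change was 0.09 (SE 0.105, 95% CI −0.14 to 0.32, exact permutation p = 0.442).

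All 6 genes passed the filter of a mean of at least 0.1 FPKM and had positive log2 fold changes, with a median of 0.31 beside −0.01 over the 16169 genes tested. With 1 added to each FPKM value in place of 0.1 that median was 0.20. It was 0.61 without *Atf6*+/+ replicate 1, 0.13 without replicate 3, 0.14 without replicate 4 and 0.20 without *Atf6*-/- replicate 3. A bone marrow covariate, which itself differed between the genotypes, brought it to 0.02. In the limma fit 0 of 6 had an adjusted p under 0.05, beside 0.068% of all genes (11), and adjusted p ran from 0.475 to 0.821. At an unadjusted p of at most 0.05 there was 1 of 6, *Slc26a5*, beside 9.85% of all genes (1592, of which 724 were higher and 868 lower), and 0 of 6 had genotypes that did not overlap, beside 1.25% of all genes. A count of 1 among 6 genes is close to that background. The count was 0 with the bone marrow score, beside 879 of all genes. Leaving out 1 cochlea at a time moved it between 0 and 2, beside 1197 to 1865 of all genes. Expressed as highest over lowest library, the spread was 17.1-fold for *Slc26a5*, 10-fold for *Lmod3*, 5.43-fold for *Chrna9*, 3.44-fold for *Chrna10*, 1.63-fold for *Ikzf2* and 1.54-fold for *Strip2*.

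**Figure D1:**
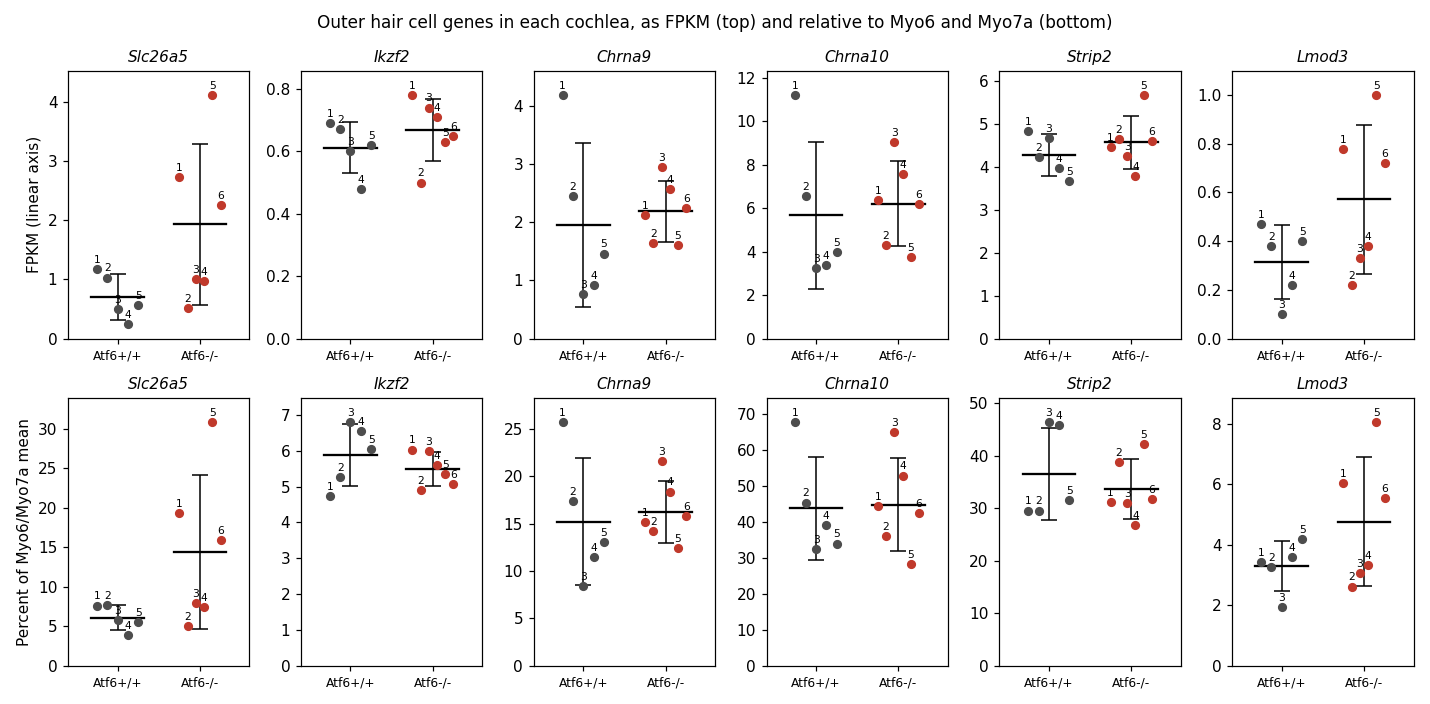
FPKM (upper panels) and percent of the geometric mean of *Myo6* and *Myo7a* with 0.1 added to every value (lower panels) of the 6 outer hair cell genes in each cochlea, on linear axes from 0, with 1 numbered point per library and bars at each genotype's mean ± SD. *Slc26a5* and *Lmod3* are highest in *Atf6*-/- replicates 5, 1 and 6 in both panels, and the genotypes overlap for all 6 genes.

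The reference used for scaling was the geometric mean of *Myo6* and *Myo7a*, with 0.1 added to each value, and 0.1 was also added to the gene that was divided by it. For genes near 0.1 FPKM, such as *Lmod3*, the percentages therefore stand well above the plain ratio of FPKM values. The reference was 16.7, 14.6, 10.3, 8.86 and 11.9 FPKM in *Atf6*+/+ replicates 1 to 5, and 12.2, 14.3 and 14.8 FPKM as the lowest, median and highest *Atf6*-/- value. The highest and the 3 lowest libraries were wild types, a range of 1.88-fold among wild types and 1.21-fold among mutants. Because the reference was higher on average in mutants, division by it lowered every log2 fold change by the same amount, and the median over all tested genes from −0.01 to −0.21. The distance of a gene from that median is therefore fixed, and only the spread between libraries and the p can change. Relative values from the fit with genotype alone and all 11 libraries are to be read against −0.21. That background was 0.00 with the bone marrow score, −0.28 with *Myo6* alone, −0.14 with *Myo7a* alone and −0.12 with a wider reference of 16 pan hair cell genes. Leaving out 1 cochlea at a time moved it between −0.32 (without *Atf6*+/+ replicate 1) and −0.10 (without replicate 4), so values under these settings have their own background.

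Relative to the reference, *Slc26a5* stood at 7.62%, 7.73%, 5.82%, 3.84% and 5.53% in *Atf6*+/+ replicates 1 to 5, and its lowest, median and highest *Atf6*-/- values were 4.99%, 11.9% and 30.8%. The wild types drew closer together, and *Atf6*-/- replicates 5, 1 and 6 again stood well above them, with replicate 3 just above at 7.90%. The log2 fold change was 1.0 (SE 0.377, 95% CI 0.21 to 1.79), with an unadjusted limma p of 0.0157, an adjusted limma p of 0.53 and an exact permutation p of 0.0823. Each of the 11 fits without 1 cochlea kept an unadjusted limma p under 0.05, with log2 fold changes from 0.72 without *Atf6*-/- replicate 5 to 1.25 without replicate 2. With the bone marrow score it was 0.55 at an unadjusted limma p of 0.248, and with 1 added to each FPKM value it was 0.50. The adjusted limma p on this scale ran from 0.105, with the replicate number as a block, to 1.0 over the alternatives. With 0.1 added in both cases, the spread of *Slc26a5* over all libraries was 12.4-fold before and 8.03-fold after division by the myosin genes.

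*Lmod3* relative to the reference was 3.42%, 3.28%, 1.94%, 3.61% and 4.19% in *Atf6*+/+ replicates 1 to 5, with lowest, median and highest *Atf6*-/- values of 2.62%, 4.43% and 8.05%. The same 3 mutant libraries were highest and the other 3 lay inside the wild-type range. Its log2 fold change was 0.46 (SE 0.329, exact permutation p = 0.203). It was 0.09 with the bone marrow score, 0.06 with 1 added to each FPKM value, 0.28 without *Atf6*+/+ replicate 3 and 0.29 without *Atf6*-/- replicate 5.

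*Chrna9* relative to the reference was 25.7%, 17.4%, 8.44%, 11.5% and 13.1% in wild types and 12.4%, 15.5% and 21.6% as the lowest, median and highest mutant value. *Chrna10* was at 67.7%, 45.4%, 32.5%, 39.2% and 34.0% in wild types and at 28.2%, 43.4% and 64.9% in mutants. Wild-type replicate 1 stayed the highest library for both genes, and the lowest for *Chrna10* was *Atf6*-/- replicate 5, the cochlea with the most prestin RNA. The log2 fold changes were 0.18 for *Chrna9* (SE 0.248, exact permutation p = 0.535) and 0.04 for *Chrna10* (SE 0.22, exact permutation p = 0.874). Neither sign held throughout, at −0.17 and −0.14 with the bone marrow score, and −0.03 for *Chrna10* with *Myo6* alone as the reference. With *Myo7a* alone and with the wider reference *Chrna10* was at 0.11 and 0.13.

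*Ikzf2* ran from 4.74% to 6.79% in wild types and from 4.91% to 6.03% in mutants, with a log2 fold change of −0.09 (SE 0.218, exact permutation p = 0.392), or −0.02 with the bone marrow score. *Strip2* ran from 29.6% to 46.4% and from 26.9% to 42.2%, with a log2 fold change of −0.11 (SE 0.181, exact permutation p = 0.539), or 0.09 with the bone marrow score. With *Myo6* alone, *Myo7a* alone and the wider reference, *Ikzf2* was at −0.16, −0.02 and 0.00, and *Strip2* at −0.18, −0.04 and −0.02. For *Strip2* the highest libraries on this scale were *Atf6*+/+ replicates 3 and 4, those with the least *Myo6* and *Myo7a*, and the spread over all libraries was wider after division (1.72-fold) than before it (1.53-fold, 0.1 added).

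After scaling, 4 of 6 genes had positive and 2 negative log2 fold changes, with a median of 0.11 beside −0.21 for all genes. It was 0.03 beside 0.00 for all genes under the bone marrow covariate, and 0.02 beside −0.19 with 1 added to each FPKM value in place of 0.1. It was −0.01 beside −0.15 without *Atf6*+/+ replicate 3, and 0.30 beside −0.32 without replicate 1, the lowest and highest of the fits that leave out 1 cochlea. The choice of reference moves all genes alike, so the pairs that follow are not separate results. By reference the members' median was 0.04 beside −0.28 with *Myo6* alone, 0.18 beside −0.14 with *Myo7a* alone and 0.20 beside −0.12 with the wider reference. With a vestibular covariate it was 0.23 beside −0.25. In limma 0 of 6 had an adjusted p under 0.05, beside 0.0371% of all genes (6), and 1 of 6, *Slc26a5*, an unadjusted p of at most 0.05, beside 7.07% (1143, of which 62 were higher and 1081 lower). That background count was itself unstable, at 6163 without *Atf6*+/+ replicate 1, 2196 without replicate 2, 474 without replicate 3, 484 without replicate 4, 710 without *Atf6*-/- replicate 1, 722 without replicate 5 and 709 without replicate 6. A bone marrow covariate left 183, and the vestibular covariate described below gave 2029. By reference it was 721 with *Myo7a* alone and 601 with the wider reference. No member had genotypes that did not overlap, beside 0.315% of all genes.

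Over the 11 libraries the members differed in how closely they followed *Myo6* and *Myo7a*. Of 12 relations computed, on log2 values with 100000 permutations each and Benjamini-Hochberg adjustment over the 12, the strongest was *Chrna9*, with Pearson's r 0.917 (permutation p = 6e-05, adjusted 0.00072) and Spearman's rho 0.827 (permutation p = 0.00297, adjusted 0.0316). *Chrna10* followed with r 0.828 (permutation p = 0.00105, adjusted 0.0063) and rho 0.791 (permutation p = 0.00527, adjusted 0.0316). Without the libraries farthest from the median of the reference, *Atf6*+/+ replicates 3 and 4, r was 0.866 for *Chrna9* and 0.814 for *Chrna10*, and with each genotype centred on its own mean it was 0.912 and 0.829.

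*Ikzf2* had r 0.771 (permutation p = 0.00707, adjusted 0.0283), rho 0.709 (permutation p = 0.0177, adjusted 0.0532), r 0.629 without wild-type replicates 3 and 4, and a centred r of 0.745. *Slc26a5* had r 0.711 (permutation p = 0.0136, adjusted 0.0408) and rho 0.727 (permutation p = 0.0145, adjusted 0.0532), with a centred r of 0.646. Its r was 0.43 without wild-type replicates 3 and 4. Those had the lowest reference levels, and leaving them out narrows the range, which can by itself lower r. *Lmod3* had r 0.649 (permutation p = 0.032, adjusted 0.0768) and rho 0.589 (permutation p = 0.0617, adjusted 0.148), with r 0.334 without the same 2 libraries and a centred r of 0.572. *Strip2* had the weakest relation, with r 0.256 (permutation p = 0.44, adjusted 0.528), rho 0.209 (permutation p = 0.541, adjusted 0.541), r 0.268 without those libraries and a centred r of 0.171. All values of a library share its total, and the labels name no batch within which to repeat the relations.

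**Figure D2:**
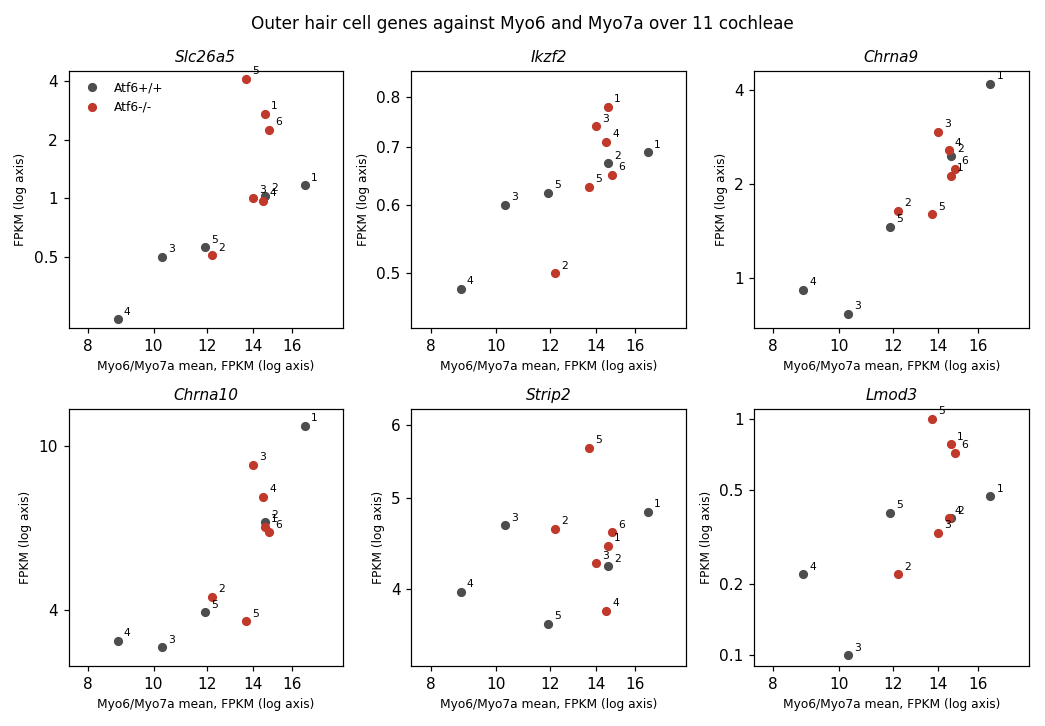
FPKM of each outer hair cell gene against the geometric mean of *Myo6* and *Myo7a* (FPKM, 0.1 added to each), on log axes, with 1 numbered point per cochlea. *Chrna9* (r 0.917) and *Chrna10* (r 0.828) follow the reference, while *Atf6*-/- replicates 5, 1 and 6 lie above the other libraries for *Slc26a5* and *Lmod3* at a similar reference level.

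Among themselves, with each genotype centred on its mean, 4 of the 6 members formed close pairs over the 11 libraries, given as a description. *Chrna9* and *Chrna10* had r 0.953 and *Slc26a5* and *Lmod3* r 0.86, whereas *Slc26a5* had r 0.375 with *Chrna9* and 0.257 with *Chrna10*. *Ikzf2* lay between them, with r 0.696 to *Chrna10*, 0.641 to *Chrna9* and 0.601 to *Slc26a5*. *Strip2* was close to none of them, with r 0.556 to *Slc26a5* and −0.0768 to *Ikzf2*. Oncomodulin, the calcium buffer of outer hair cells encoded by *Ocm*, was close to the prestin pair, with r 0.876 to *Slc26a5* and 0.93 to *Lmod3*. *Ocm* had r 0.678 to *Ikzf2*, 0.607 to *Chrna9*, 0.452 to *Chrna10* and 0.224 to *Strip2*.

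The nearest genes by the same centred r, among the 13611 with a mean of at least 1 FPKM, also differed between the pairs. For *Chrna10* they were *Myo15* (0.978), *Kcna10* (0.976) and *Espn* (0.975), genes of hair cell stereocilia and a hair cell potassium channel. For *Chrna9* they were *Slc17a8* (0.973), the vesicular glutamate transporter of inner hair cells, *Kncn* (0.969), encoding kinocilin of hair cells, and *Sfrp1* (0.967), a secreted Wnt modulator. For *Ikzf2* they were *Zc3h7a* (0.931), *Baiap2l2* (0.92), a stereocilia protein, and *Cdh23* (0.91), the tip link cadherin.

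The other 3 members had none of these among their nearest genes. *Slc26a5* was closest to *Gata3* (0.951), a transcription factor of the developing and mature cochlea, *Trpm3* (0.951), a cation channel, and *Igf2bp2* (0.95), an RNA-binding protein. *Lmod3* was closest to *Rasgrp1* (0.955), *Mxd4* (0.954) and *Grb14* (0.953), and *Strip2* to *Siah3* (0.924), *Gtpbp10* (0.924) and *Arrb1* (0.899).

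The promoters of the pair that varied together most closely, *Chrna9* and *Chrna10*, are shown for that reason. RefSeq sequence (GRCm38.p6) was matched for 4 of the 6 genes, *Slc26a5*, *Chrna9*, *Chrna10* and *Strip2*, and the 250 bases before the start were searched on both strands for the E-box CANNTG, bound by basic helix-loop-helix factors such as ATOH1, for the Ikaros core GGGAA, and for the endoplasmic reticulum stress element, CCAAT and CCACG spaced by 9 bases. The *Chrna9* window, chr5:65966874-65967123 on the plus strand, and the *Chrna10* window, chr7:102116714-102116963 on the minus strand, are written 5′ to 3′ with E-boxes in capitals.
Chrna9: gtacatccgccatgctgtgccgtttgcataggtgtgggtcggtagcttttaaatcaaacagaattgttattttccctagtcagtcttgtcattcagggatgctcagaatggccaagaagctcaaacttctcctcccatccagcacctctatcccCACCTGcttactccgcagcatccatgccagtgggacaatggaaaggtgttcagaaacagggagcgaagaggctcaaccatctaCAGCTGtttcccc
Chrna10: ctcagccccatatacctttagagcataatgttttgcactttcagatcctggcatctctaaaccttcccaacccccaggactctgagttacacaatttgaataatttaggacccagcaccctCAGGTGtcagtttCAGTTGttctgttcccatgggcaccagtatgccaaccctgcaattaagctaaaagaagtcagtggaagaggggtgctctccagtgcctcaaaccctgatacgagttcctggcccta
Each window held 2 E-boxes and 2 GGGAA matches. The *Slc26a5* window held 0 E-boxes and 2 GGGAA matches, and *Strip2* 1 of each. Of 32851 promoter windows of that length, 66.2% held an E-box, 56.2% GGGAA and 0.113% the stress element, which was in none of the 4.

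Other outer hair cell genes did not move as a block. Of 7 listed, 6 were tested, 4 had positive log2 fold changes, 2 passed the unadjusted limma p upwards (*Ocm* and *Kcnn2*) and 0 the adjusted one. The study had already reported both genes as altered in these same libraries, and the list was chosen with earlier results known. The median was 0.14. That median was 0.09 without *Atf6*+/+ replicate 3 and 0.06 under the bone marrow covariate, and relative to *Myo6* and *Myo7a* it was −0.06 against −0.21 for all genes, with 3 of 6 negative. On the relative scale it was 0.07 under the bone marrow covariate, 0.02 without *Atf6*+/+ replicate 4 and −0.13 without replicate 1. *Ocm* was at 49.8, 43.3, 16.9, 17.8 and 43.1 FPKM in *Atf6*+/+ replicates 1 to 5, with lowest, median and highest *Atf6*-/- values of 35.2, 73.4 and 106 FPKM. Its highest libraries were *Atf6*-/- replicates 5, 1 and 6, as for prestin, and 5 of 6 mutants exceeded every wild type. For *Ocm* the log2 fold change was 1.16 (SE 0.356), with an unadjusted limma p of 0.00671, an adjusted limma p of 0.391 and an exact permutation p of 0.0238, and 0.96 relative to *Myo6* and *Myo7a* (adjusted limma p = 0.421). *Kcnn2*, the calcium-gated potassium channel that acts with the nicotinic receptor, was at 11.3 ± 1.07 FPKM (SD, n = 5) and 13.2 ± 1.06 FPKM (SD, n = 6), which is 0.23 on the log2 scale and 0.03 after scaling. *Strc*, encoding stereocilin, had a log2 fold change of 0.51.

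Genes of other cells in the sensory epithelium are set beside them. Of 14 further pan hair cell genes 10 had positive and 4 negative log2 fold changes with a median of 0.12 (−0.05 without *Atf6*+/+ replicate 3, 0.37 without replicate 1), and of 5 tested inner hair cell genes 3 were positive and 2 negative with a median of 0.09 (0.03 without *Atf6*-/- replicate 5, 0.18 without *Atf6*+/+ replicate 5), with 0 at the adjusted and 0 at the unadjusted limma p in both lists. The bone marrow covariate turned these medians to −0.16 and −0.15. Relative to *Myo6* and *Myo7a* the medians were −0.08 and −0.1, with 1 gene, *Cdh23*, lower at the unadjusted limma p. Leaving out 1 cochlea at a time moved the first between −0.19 and 0.06 and the second between −0.17 and −0.01. All 6 supporting cell genes had positive log2 fold changes in FPKM, also as TPM and after median-of-ratios scaling, with a median of 0.26, or 0.11 under the bone marrow covariate. After division by the myosin genes 3 of 6 were positive, with a median of 0.07 against −0.21 for all genes. *Fgfr3*, a receptor gene of pillar and Deiters cells beside the outer hair cells, was at 7.0 ± 1.41 FPKM (SD, n = 5) and 10.4 ± 0.844 FPKM (SD, n = 6), with no overlap of the genotypes, a log2 fold change of 0.59 and an adjusted limma p of 0.133.

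Families of the members were listed to see whether relatives varied alike. Among nicotinic receptor subunits other than α9 and α10, 11 of 14 were tested, with 2 positive and 9 negative log2 fold changes (4 and 7 as TPM), a median of −0.12 (−0.05 without *Atf6*-/- replicate 1, −0.21 without *Atf6*+/+ replicate 5) and 0 at the adjusted limma p. At the unadjusted limma p *Chrna7* was higher and *Chrna5* and *Chrna6* lower, with *Chrna6* at a mean of 5.40 FPKM in wild types and 3.64 FPKM in mutants, the order used for the relatives below. The most abundant was *Chrnb2*, a subunit of neuronal receptors, at 12.2 and 11.7 FPKM. Among other SLC26 anion transporters, 8 of 10 were tested, 4 positive and 4 negative (5 and 3 as TPM), with 0 at the adjusted limma p, *Slc26a11* higher and *Slc26a10* lower at the unadjusted one. *Slc26a10* was at 1.13 and 0.557 FPKM, a log2 fold change of −0.90 at an adjusted limma p of 0.152. *Slc26a4*, encoding pendrin of the lateral wall, was at 16.2 and 19.6 FPKM, a log2 fold change of 0.30.

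The 4 other Ikaros family genes had 2 positive and 2 negative log2 fold changes, with 0 at either limma threshold. *Ikzf1*, a lymphoid factor, was at 1.47 and 1.03 FPKM on average, with its highest value in *Atf6*+/+ replicate 3, and *Ikzf4* at 2.49 and 2.82 FPKM. Of leiomodins and tropomodulins, 5 of 6 were tested, 3 positive and 2 negative (4 and 1 as TPM), with *Lmod1* (4.29 and 5.17 FPKM) and *Tmod2* (11.7 and 13.3 FPKM) higher at the unadjusted limma p and 0 at the adjusted one. The most abundant was *Tmod1*, which caps actin filaments, at 94.4 and 114 FPKM. The 13 STRIPAK genes other than *Strip2* had 6 positive and 7 negative log2 fold changes (10 and 3 as TPM), a median of −0.01 and 0 at either limma threshold. Relative to *Myo6* and *Myo7a* the family medians were −0.31 for nicotinic subunits, −0.19 for SLC26 transporters, −0.34 for Ikaros genes, −0.01 for leiomodins and tropomodulins and −0.2 for STRIPAK genes, against −0.21 for all genes. In FPKM the bone marrow covariate turned the Ikaros median from −0.14 to 0.14 and the leiomodin and tropomodulin median from 0.19 to −0.02. On the relative scale it moved the Ikaros median to 0.15 and the nicotinic median to −0.08, against 0.00 for all genes. Without *Atf6*+/+ replicate 3 the Ikaros median was −0.01 in FPKM, and −0.15 on the relative scale against −0.15 for all genes.

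*Lmod3* is also a muscle gene, so the skeletal muscle genes were read in each library. Of 13 tested, 8 had positive and 5 negative log2 fold changes, with a median of 0.09 and 0 at either limma threshold. The median was −0.16 without *Atf6*-/- replicate 3 and −0.11 under the bone marrow covariate. Their sum (15 listed, *Casq1* the most abundant) was 9.18, 12, 10.1, 8.52 and 14.1 FPKM in *Atf6*+/+ replicates 1 to 5, with lowest, median and highest *Atf6*-/- sums of 7.19, 8.45 and 58.8 FPKM. The 58.8 FPKM belonged to *Atf6*-/- replicate 3, where *Lmod3* was at 0.33 FPKM, and *Atf6*-/- replicates 5 and 6, with high *Lmod3*, had the lowest muscle sums and 1 and 2 of the 15 genes at 0. The r of *Lmod3* with the muscle genes was −0.196 (permutation p = 0.539), rho was −0.315, and r was −0.437 without *Atf6*-/- replicate 3 and *Atf6*+/+ replicate 5. Over the 6 members r with the muscle genes ran from −0.272 for *Strip2* to 0.38 for *Chrna10*, and adjusted permutation p was at least 0.481 for r and 0.456 for rho.

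Vestibular and otoconial genes (4 listed, *Otop1* the most abundant) also differed between the cochleae. All 4 had negative log2 fold changes, also as TPM and after median-of-ratios scaling, with a median of −0.33 and 0 at either limma threshold. That median was 0.06 without *Atf6*-/- replicate 5 and −0.81 without *Atf6*-/- replicate 4. Their sum was 20.9, 17.1, 10.8, 12.4 and 12.4 FPKM in *Atf6*+/+ replicates 1 to 5 and 8.0, 12 and 21.8 FPKM as the lowest, median and highest *Atf6*-/- sum. It was lowest in *Atf6*-/- replicate 5, the cochlea highest in prestin RNA, where *Nox3* was at 0 and *Otol1* at 0.08 FPKM, and high in *Atf6*-/- replicate 4 and *Atf6*+/+ replicate 1. *Atf6*+/+ replicates 1 and 2 and *Atf6*-/- replicates 3 and 4 were highest for *Chrna9* and *Chrna10* and for the summed vestibular and otoconial genes. That relation was not tested. With a score of these genes as covariate, an alternative chosen after the data were seen, the log2 fold change of *Slc26a5* was 1.12 at an unadjusted limma p of 0.0474, and 0.87 relative to *Myo6* and *Myo7a* at an unadjusted limma p of 0.0314. That covariate moved *Chrna10* from 0.24 to 0.40 at an unadjusted limma p of 0.091, and *Chrna9* from 0.38 to 0.54 at 0.0841. In the same fit *Myo7a* moved from 0.13 to 0.20 at an unadjusted limma p of 0.0923, and *Myo6* from 0.26 to 0.29. On the relative scale *Chrna10* moved from 0.04 to 0.16, *Chrna9* from 0.18 to 0.29 and *Strip2* from −0.11 to −0.19, against −0.25 for all genes. Leaving out *Atf6*-/- replicates 3 and 5 together was also chosen after the data were seen. For *Slc26a5* it gave 1.0 at an unadjusted limma p of 0.0729, and 0.80 on the relative scale at an unadjusted limma p of 0.0393. It removed the cochlea with the most prestin RNA, and kept *Atf6*-/- replicate 4, which had the highest vestibular sum.

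Neuron and T cell genes completed the lists. The 6 neuron genes were negative in 6 of 6 (4 of 6 as TPM), with a median of −0.06 and 0 at either limma threshold, and *Snap25* was the most abundant. Their median was 0 under the bone marrow covariate and between −0.10 and −0.03 with 1 cochlea left out. Of 6 T cell genes 4 were tested, 3 negative with a median of −0.63, and 2 were lower at the unadjusted and 0 at the adjusted limma p.

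The deposited FPKM values show depth only in relative terms. The steps between low values put every library between 0.97 and 1.05 of the median library. By this measure alone, the low values of *Slc26a5*, *Ikzf2* and *Lmod3* came from libraries of similar depth. Genes at or above 0.1 FPKM ran from 15733 in *Atf6*-/- replicate 5 to 16204 in *Atf6*+/+ replicate 5. The number of fragments behind each value cannot be read from the deposited values.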

How the data were processed

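The 11 libraries were stranded mRNA libraries, 1 per cochlea. The authors aligned reads with HISAT2 2.0.4 to GRCm39 and deposited FPKM from RSEM 1.2.12, versions as in the submitters' processing notes. Deposited values have 2 decimals and are not counts. Values were taken as log2(FPKM + 0.1), and the 16169 genes averaging 0.1 FPKM or more were fitted with limma 3.58.1 (R 4.3.3), trended variance, genotype as the only term, two-sided, with Benjamini-Hochberg adjustment over all of them. The relative scale subtracted the mean log2 value of *Myo6* and *Myo7a* in the same library, and the same fit was run. Each member also had a two-sided exact permutation test over all 462 splits, whose smallest p is 0.00216. Python 3.11.15, numpy 2.4.6, pandas 2.3.3 and scipy 1.17.1 were used. The fit was checked on simulated data, but the outcome of that check is not given here and no result rests on it. Genes named are the 6 members, *Myo6*, *Myo7a* and *Atf6*, genes of the lists, and for each member the 3 genes of highest centred r. *Art1* and *Gm29114* were named for their exon overlap, and examples from the lists after their values were seen. Members and lists were chosen with earlier results of these data known. Alternatives changed the added value, the filter, the scaling (TPM, median-of-ratios), the reference, the variance, the covariates or the libraries used.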

Additional observations from a re-analysis of the deposited data

Results flagged for a closer look

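Of 156 groups of libraries compared, 9 had a highest or lowest library whose gap to the nearest other, divided by the range of the group, was above Dixon's 95% critical value. By the construction of that value chance alone gives about 1 in 20 groups. *Atf6*-/- replicate 3 was at 9.59 FPKM for *Acta1*, a skeletal muscle actin, against 0.09 to 0.30 FPKM in the other mutants. The same library had 58.8 FPKM of summed skeletal muscle genes, against 7.19 to 8.85 FPKM, and 0.85 FPKM of *Slc26a10*, against 0.44 to 0.57 FPKM. *Atf6*-/- replicate 4 was at 6.72 FPKM for *Nox3*, an oxidase of otoconia formation, against 0 to 1.92 FPKM. It also had 309 FPKM of *S100a9*, against 25.3 to 104 FPKM, and 1190 FPKM of summed neutrophil genes, against 89.4 to 338 FPKM. *Atf6*+/+ replicate 5 was at 19700 FPKM for *Hba-a1*, an α-globin gene, against 2210 to 6830 FPKM, and at 30300 FPKM for summed erythroid genes, against 3170 to 10400 FPKM. *Atf6*+/+ replicate 3 was at 2.99 FPKM for *Ikzf1*, against 1.01 to 1.26 FPKM. None of the 6 outer hair cell genes, *Myo6*, *Myo7a* or *Atf6* had such a library on the scales tested.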

How the results depend on the processing

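The count of outer hair cell genes at an adjusted limma p under 0.05 was 0 under every alternative on both scales. At the unadjusted limma p of at most 0.05 the FPKM count, 1, was 0 with the bone marrow score and 0 without *Atf6*-/- replicates 3 and 5, an alternative chosen after the data were seen. Replicate 3 had the highest muscle sum, and replicate 5 the lowest vestibular sum but also the most prestin RNA. *Atf6*-/- replicate 4, with the highest vestibular sum, was kept. Leaving out 1 library at a time gave an FPKM count of 0 (without *Atf6*+/+ replicates 3, 4 or 5 or *Atf6*-/- replicates 1, 5 or 6) to 2 (without *Atf6*+/+ replicate 1 or *Atf6*-/- replicate 2). The relative count, 1, was 0 with the bone marrow score. The count for *Myo6* and *Myo7a*, 0, ran from 0 to 1 (without *Atf6*+/+ replicate 1 or 2) when 1 library was left out. Signs turned with the bone marrow score for *Ikzf2* (−0.03), *Chrna9* (−0.18), *Chrna10* (−0.16) and *Myo7a* (−0.02) in FPKM, and for *Chrna9* (−0.17), *Chrna10* (−0.14) and *Strip2* (0.09) on the relative scale. *Chrna10* was −0.03 with *Myo6* alone. Without 1 library, relative *Chrna9* ran from −0.01 to 0.39 and *Chrna10* from −0.08 to 0.21. In the same fits FPKM *Ikzf2* ran from 0.04 to 0.18 and *Strip2* from 0.03 to 0.14, and relative *Ikzf2* from −0.16 to −0.03, *Strip2* from −0.18 to −0.01 and *Lmod3* from 0.28 to 0.61. With 1 added in place of 0.1, *Ikzf2* was 0.05 and *Chrna9* 0.21 in FPKM, and relative *Chrna9* was 0.03 and *Chrna10* 0.01. The number of all genes at the unadjusted p was 879 in FPKM with the bone marrow score. That score itself differed between the genotypes, and the cause of the lower number was not tested. A filter of 1 FPKM left *Ikzf2* and *Lmod3* untested. Same-numbered libraries had r from −0.21 to 0.119 over 5 pairs, and 1 of 5 was closest to its own number, so they share only a number. With the replicate block, in which *Atf6*-/- replicate 6 has no partner, the counts were 1 in FPKM, 1 on the relative scale and 0 for *Myo6* and *Myo7a*, *Atf6* was at −1.16, and all genes at the unadjusted p went from 1592 to 1078. It changed no call of the 6 members, *Myo6*, *Myo7a* or *Atf6*. Other genes were not compared singly under it.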
